A study of Danio rerio with 6 samples.

Results

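Semaphorins, plexins and neuropilins were examined in cells sorted from regenerating zebrafish caudal fins at 14 days post amputation. The 46 genes were taken by symbol (sema3 to sema7, plxna to plxnd, nrp1 and nrp2) from 30837 gene symbols in the count table, and each gene was represented by its transcript with the most reads over the 6 libraries. They are 30 semaphorins (12 of class 3, 9 of class 4, 3 of class 5, 5 of class 6 and 1 of class 7), 12 plexins (5 A, 5 B, 1 C and 1 D) and 4 neuropilins. All cells came from adult fish that carried the same transgenes, in a facility whose wild-type stock derives from the Tubingen strain. The first, cryaa:EGFP, sox9a:Cre-ERt2, places an inducible Cre under sox9a sequences beside a lens EGFP marker. The second, Ola.Actb:loxp-TagBFP-loxp-EGFP, switches a cell to EGFP once Cre has acted, and the third, Ola.Sp7:mCherry, places mCherry under Sp7 sequences. The 3 groups, with 2 libraries each, were osteoblasts (sorted as EGFP-/sp7+), osteogenic mesenchymal progenitors or OMP (EGFP+/sp7+) and chondrogenic mesenchymal progenitors or CMP (EGFP+/sp7-). The study's question was the lineage relation of these populations. No label says that the 2 libraries of a group came from separate fish, so the p-values speak only for how these libraries vary.

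Semaphorins are ligands that steer migrating cells and growing axons and blood vessels. Most act on plexins, transmembrane receptors whose cytoplasmic part switches off small GTPases of the Ras and Rap family. Class 3 semaphorins are secreted, and most of them need a neuropilin as co-receptor beside an A-type plexin. Classes 4, 5 and 6 are transmembrane proteins, and class 7 is anchored by a lipid. In the regenerating zebrafish fin, Sema3d is known to act downstream of the gap junction protein Connexin43, with Nrp2a and PlexinA3 as its receptors in ray growth and joint formation. In mice, Sema3A made by osteoblasts protects bone, and Sema4D made by osteoclasts restrains osteoblasts through Plexin-B1.

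Between 3915569 and 5281896 reads per library lay in the transcripts kept, and the 46 genes took 0.136% and 0.113% of them in osteoblasts, 0.0979% and 0.0844% in OMP, and 0.0798% and 0.0792% in CMP. The reporter reads went against the sort labels of some libraries. In the count table, the libraries titled osteoblast stood under Ob-GR headers, those titled OMP under Ob-G and those titled CMP under Mes-G. The titles do not say what these letters stand for. The libraries labelled osteoblast had 2434 and 4146 EGFP reads, those labelled OMP had 3225 and 6998, and those labelled CMP had 3931 and 4802. mCherry had 2455 and 8136 reads in osteoblasts, 6 and 62 in OMP, and 3 and 47 in CMP. TagBFP, which Cre removes in the switch to EGFP, had 67 and 192 reads in osteoblasts, 56 and 319 in OMP, and 287 and 1233 in CMP. Its level was not called between any groups, and the Cre transgene had 0 reads in every library. The endogenous sp7, a transcription factor needed for osteoblast differentiation, averaged 168 ± 9.87 CPM (reads scaled to a common library size) in osteoblasts, 9.42 ± 1.38 CPM in OMP and 2.08 ± 0.13 CPM in CMP (SD, n = 2 each). The osteoblast marker list summed to 197730 and 256060 CPM in osteoblasts, 5251 and 4096 CPM in OMP, and 868 and 802 CPM in CMP. The 7 cartilage markers summed to 362 and 329 CPM in osteoblasts, 408 and 514 CPM in OMP, and 3714 and 4226 CPM in CMP. That sum was carried by hapln1a, and sox9a, which drives cartilage differentiation, was also highest in CMP, with 54.1 and 38.1 CPM there, against 12.1 and 7.79 CPM in osteoblasts and 10.9 and 7.17 CPM in OMP. The matrix genes col2a1a, acana, acanb, matn1 and col9a1a were at 3.82 CPM or less in all 6 libraries, including those labelled chondrogenic. EGFP averaged 873 CPM in the osteoblast libraries, sorted as EGFP-, and 836 CPM in CMP, sorted as EGFP+, with no call. All comparisons, with osteoblasts as with OMP, therefore describe the libraries as labelled. The calls in osteoblasts against CMP were repeated with the OMP libraries left out, which does not address the osteoblast label. The values below are CPM after TMM scaling, which allows a gene to be compared between libraries, or RPKM (the same CPM per kilobase of transcript), which allows genes to be compared with each other.

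The summed level of semaphorin transcripts was highest in osteoblasts. Summed over the 30 genes, their level was 258 and 224 RPKM in osteoblasts, 139 and 99.1 RPKM in OMP, and 82.6 and 81.8 RPKM in CMP. The 3 groups did not overlap in this sum. Its largest parts in osteoblasts were sema5a and sema3d, with means of 91.0 and 47.1 RPKM, and the sum without them was not tested. Of the 25 tested semaphorins, 14 had a higher and 11 a lower fold in osteoblasts against CMP. In osteoblasts against OMP 11 were higher and 14 lower, so the sum over the 30 genes does not describe each gene. Plexins summed to 48.5 and 28.2 RPKM in osteoblasts, 39.6 and 25.4 RPKM in OMP, and 31.2 and 26.3 RPKM in CMP, and here the groups overlapped. Neuropilins summed to 51.1 and 33.8 RPKM in osteoblasts, 41.3 and 29.1 RPKM in OMP, and 34.2 and 26.6 RPKM in CMP, again with overlap. Among the semaphorin classes, class 5 differed the most in level, with 91.1 ± 18.9 RPKM in osteoblasts, 24.5 ± 7.02 RPKM in OMP and 8.57 ± 1.18 RPKM in CMP (SD, n = 2 each). Class 3 stood at 104 ± 12.1 RPKM in osteoblasts, 67.5 ± 10.6 RPKM in OMP and 45.8 ± 9.19 RPKM in CMP. In bulk samples, fewer cells making a transcript and less of it per cell cannot be told apart.

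**Figure D1:**
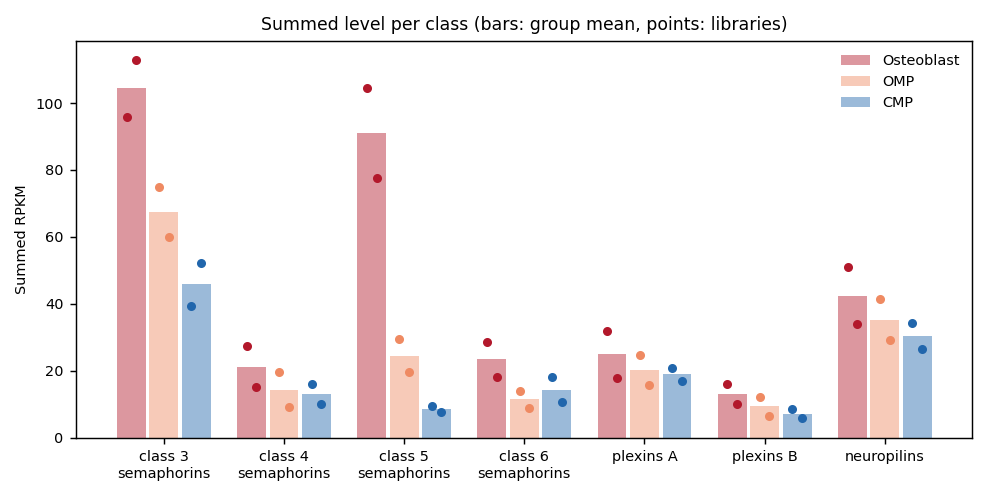
Summed level of semaphorin classes 3 to 6, plexins A and B and neuropilins in RPKM for osteoblasts, OMP and CMP, from left to right within a class. Points are libraries and bars are means of 2 libraries. Class 5 semaphorins had 91.1 RPKM in osteoblasts, 24.5 in OMP and 8.57 in CMP, while the neuropilin and plexin A sums of the groups overlapped.

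The ligand in the lead was not the same in the 3 populations. In osteoblasts the 5 highest genes were sema5a with 91.0 ± 18.98 RPKM, sema3d with 47.1 ± 16.7, sema3c with 16.5 ± 1.63, sema4c with 15.7 ± 5.78 and nrp2a with 15.3 ± 1.74 (SD, n = 2). The libraries of sema5a, sema3d and sema3c did not overlap, and the last 3 genes did not differ beyond their spread. In OMP they were sema3d with 26.8 ± 2.07 RPKM, sema5a with 20.9 ± 3.33, nrp2b with 14.9 ± 3.75, sema3c with 12.6 ± 1.67 and nrp1a with 11.3 ± 2.91. In CMP they were sema3c with 13.5 ± 4.36 RPKM, nrp2b with 12.4 ± 3.63, nrp2a with 10.3 ± 0.37, plxna3 with 8.83 ± 1.20 and sema3bl with 8.28 ± 0.25. The libraries of sema3d, sema5a and nrp2b were separate from each other in OMP, as were those of nrp2a and plxna3 in CMP, while the other neighbours in these lists overlapped. Of the 40 genes with enough reads to be tested, 18 had their highest mean in osteoblasts, 11 in OMP and 11 in CMP. The same split was not computed over all genes.

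**Figure D2:**
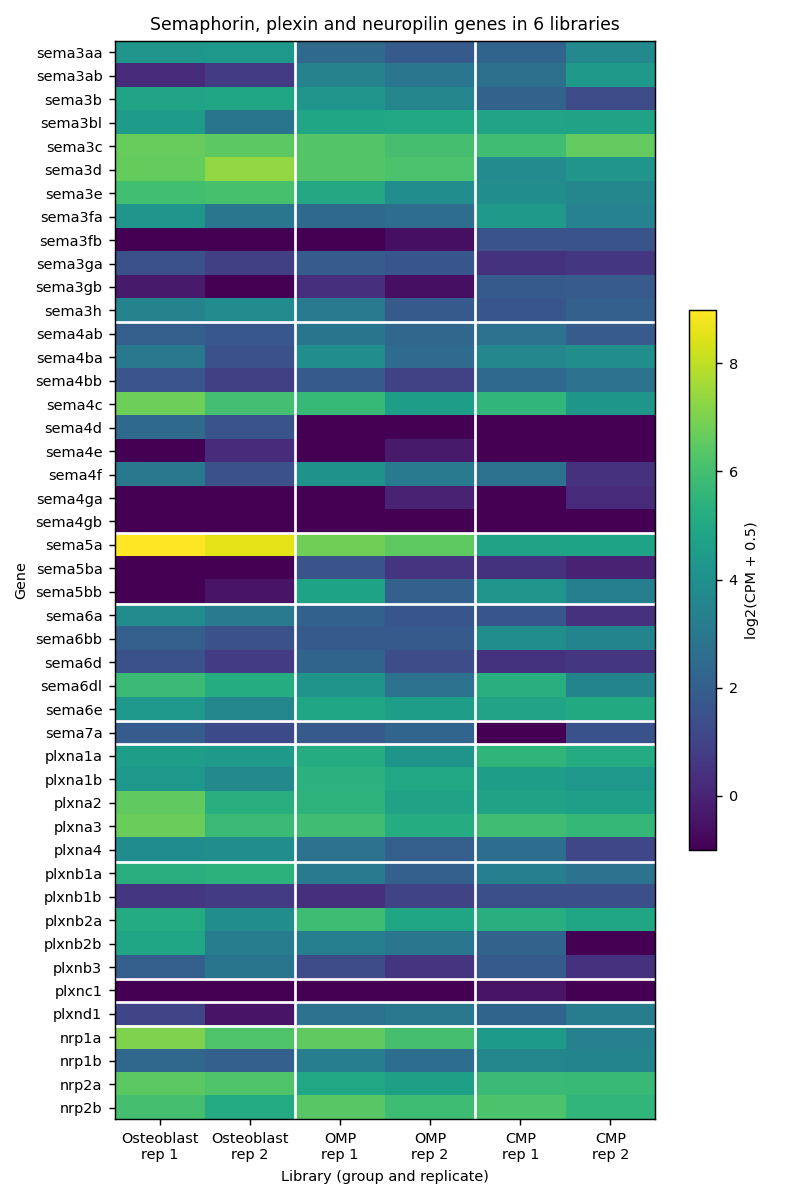
Level of every semaphorin, plexin and neuropilin gene in each of the 6 libraries, as log2(CPM + 0.5), with osteoblast libraries first, then OMP and CMP. Genes are grouped by family. Lighter colours mark higher levels: sema5a and sema3d are lightest in osteoblasts, and sema5bb, with 1 read in the osteoblast libraries together, is dark there.

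Differences were tested on all 13399 genes that passed a filter on low counts, with edgeR's quasi-likelihood test and Benjamini-Hochberg adjustment, and a gene was called at an adjusted p under 0.05. In osteoblasts against CMP, 6 of the 40 tested genes were higher and 2 lower, or 20%, where 9.55% of all genes were called (3.91% higher and 5.64% lower). In osteoblasts against OMP, 3 were higher and 2 lower, or 12.5%, where 7.34% of all genes were called (2.72% higher and 4.61% lower). In OMP against CMP, 3 were higher and 0 lower, or 7.5%, where 1.41% of all genes were called (0.791% higher and 0.619% lower). At an unadjusted edgeR p under 0.05, 4 were higher and 5 lower in OMP, and DESeq2 called 4 higher and 0 lower. DESeq2 called 401 genes in all in that comparison. The share of all genes at an unadjusted p under 0.05 was not computed. Such counts, here and below, therefore have no background beside them and do not speak for the members as a set. The median log2 fold change of the 40 was 0.52 for osteoblasts against CMP, beside -0.02 over all genes. It was -0.10 for osteoblasts against OMP, beside -0.03, and 0.14 for OMP against CMP, beside 0.01. The libraries of the groups did not overlap for 30 of the 40 genes in osteoblasts against CMP, beside 48.0% of all genes, for 25 in osteoblasts against OMP, beside 42.8%, and for 21 in OMP against CMP, beside 36.1%. The 3 comparisons share their libraries pairwise, so their counts are not independent. In all, 9 genes were called in at least 1 comparison, and 31 in none. The share of all genes called in at least 1 comparison was not computed, so these 2 counts have no background beside them. The other 6 genes (plxnc1, sema4d, sema4e, sema4ga, sema4gb and sema5ba) had too few reads to be tested.

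**Figure D3:**
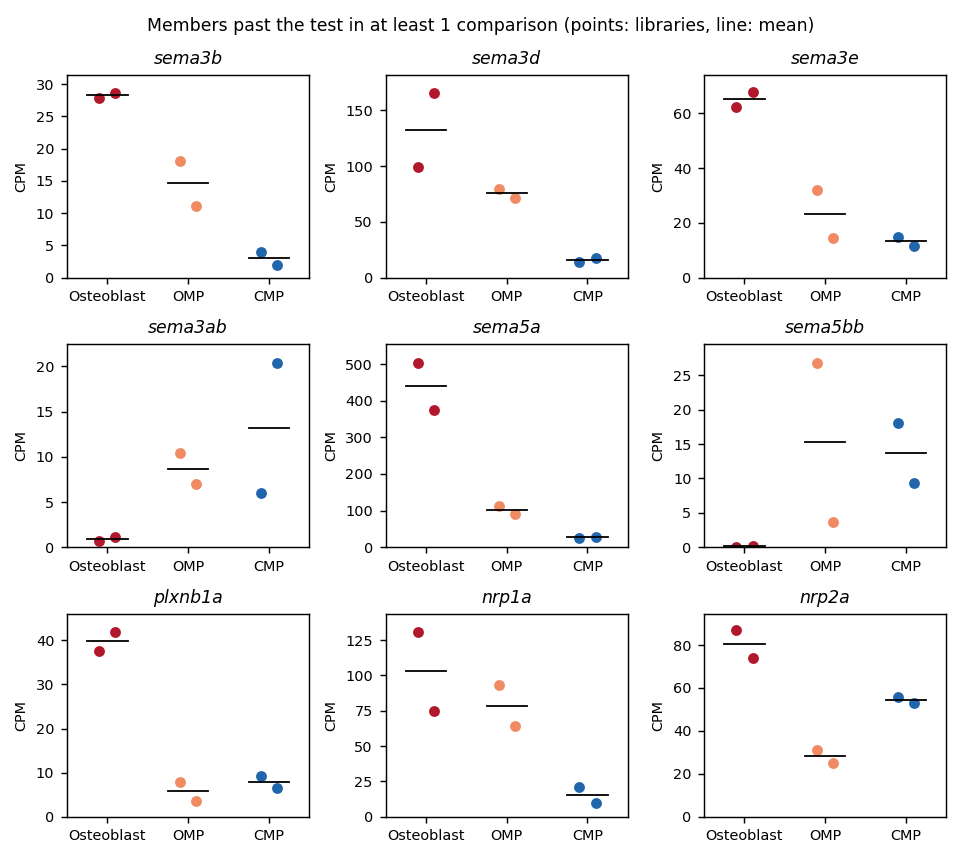
CPM of the 9 called genes in each library for osteoblasts, OMP and CMP from left to right, on a linear axis of its own for each gene. Each point is a library and each line the mean of 2. In osteoblasts sema5a stood at 505 and 375 CPM, against 26.1 and 27.3 CPM in CMP, while sema3ab and sema5bb lay lowest in osteoblasts.

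sema5a, a transmembrane semaphorin with thrombospondin repeats outside the cell, was the gene called in all 3 comparisons. It had 505 and 375 CPM in osteoblasts, 112 and 89.4 CPM in OMP, and 26.1 and 27.3 CPM in CMP. The 3 groups were separate, with OMP between the other two. Osteoblasts exceeded OMP by a log2 fold change of 2.13 (SE 0.30, edgeR adjusted p = 0.00266) and CMP by 4.04 (SE 0.33, edgeR adjusted p = 0.000132). In OMP against CMP the log2 fold change was 1.92 (SE 0.30, edgeR adjusted p = 0.0205). Both osteoblast calls of sema5a held with any single library left out, whereas the OMP–CMP call was lost without OMP library 1 or either CMP library (adjusted p up to 0.167) and with reads summed over all transcripts of the gene (0.0514).

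sema5bb, another class 5 gene, ran the other way. It had 0 and 1 reads in osteoblasts, 98 and 23 reads in OMP, and 82 and 56 reads in CMP. As CPM the osteoblast libraries stood at 0 and 0.229, the OMP libraries at 26.8 and 3.67, and the CMP libraries at 18.1 and 9.37. The single osteoblast read made it 90.4-fold lower in osteoblasts than in OMP (95% counting interval 15.9 to 3600, edgeR adjusted p = 0.0195) and 97.5-fold lower than in CMP (17.2 to 3880, edgeR adjusted p = 0.0172). These intervals cover counting error only. Both calls were lost without either osteoblast library, and without OMP library 1 or CMP library 1 in the comparison each belongs to (adjusted p up to 0.0663). The duplicate gene sema5ba had 0 reads in osteoblasts, 15 reads over the 2 OMP libraries and 7 over the CMP libraries, which makes it at least 3.74-fold lower in osteoblasts than in OMP, counting 3 reads over the group as the floor.

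Among the secreted class 3 ligands, 4 of 12 were called in osteoblasts against CMP, 3 of them higher, where 9.55% of all genes were called and 3.91% were higher. In osteoblasts against OMP 1 of the 12 was called, or 8.33%, beside 7.34% of all genes. In OMP against CMP it was also 1 of the 12, or 8.33%, beside 1.41% of all genes. sema3d, the ligand of the fin pathway above, had 99.1 and 166 CPM in osteoblasts, 79.6 and 71.4 CPM in OMP, and 13.7 and 17.9 CPM in CMP. Osteoblasts and OMP were both far above CMP. The log2 fold change was 3.06 in osteoblasts against CMP (SE 0.38, edgeR adjusted p = 0.000969) and 2.25 in OMP against CMP (SE 0.37, edgeR adjusted p = 0.0228). In osteoblasts against OMP it was 0.81 (SE 0.35), which was not called (edgeR adjusted p = 0.267). The OMP–CMP call of sema3d was lost with any OMP or CMP library left out, with adjusted p up to 0.188, and with summed transcripts (0.0664).

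sema3b had 27.8 and 28.6 CPM in osteoblasts, 18.1 and 11.2 CPM in OMP, and 3.97 and 2.01 CPM in CMP. It rose in osteoblasts against CMP by a log2 fold change of 3.25 (SE 0.51, edgeR adjusted p = 0.00347), and that call held with each library left out in turn. In OMP against CMP its log2 fold change of 2.29 (SE 0.50) missed the threshold (edgeR adjusted p = 0.0724) but passed it with DESeq2 (adjusted p = 0.0115). sema3bl, its neighbour in the RefSeq gene order of assembly GRCz12tu, had 21.9 and 6.87 CPM in osteoblasts, 29.3 and 30.6 CPM in OMP, and 27.6 and 26.4 CPM in CMP. None of the sema3bl comparisons was called, and its lowest libraries were the osteoblast ones.

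sema3e, known as the ligand of plexin D1 in blood vessel patterning, had 62.5 and 67.8 CPM in osteoblasts, 32.0 and 14.3 CPM in OMP, and 14.8 and 11.7 CPM in CMP. In osteoblasts sema3e exceeded its CMP level by a log2 fold change of 2.30 (SE 0.44, edgeR adjusted p = 0.0103), a call lost without either CMP library (adjusted p 0.0536 and 0.0982). Its receptor gene plxnd1 was at 1.64 and 0.229 CPM in osteoblasts, 6.02 and 7.49 CPM in OMP, and 4.20 and 8.53 CPM in CMP. The osteoblast libraries lay below all others for plxnd1, but the difference was not called against OMP (edgeR adjusted p = 0.0917) or CMP (edgeR adjusted p = 0.0856), and was called in both without a filter on low counts. The endothelial list that plxnd1 might also mark summed to 37.3 and 24.5 CPM in osteoblasts, 48.1 and 32.5 CPM in OMP, and 38.6 and 46.5 CPM in CMP, mostly from fli1a (20.4 to 35.6 CPM). Of its 9 markers, cdh5 and tie1 were at 0 reads everywhere, and pecam1, kdrl, tek, etv2 and sox7 were at 4.65 CPM or less. egfl7 had 1.64 and 2.06 CPM in osteoblasts, 6.29 and 9.24 CPM in OMP, and 5.08 and 14.9 CPM in CMP, the same direction as plxnd1. Other markers of the list did not share it. kdrl was lowest in CMP, with 8 and 6 reads in osteoblasts, 17 and 10 in OMP, and 2 and 1 in CMP. For fli1a the osteoblast libraries overlapped both other groups, with no call. The part of endothelial cells in the plxnd1 values was not tested.

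Of the duplicate genes of Sema3A, 1 was lower in osteoblasts and the other was not called. sema3ab had 0.654 and 1.15 CPM in osteoblasts, 10.4 and 7.01 CPM in OMP, and 5.96 and 20.4 CPM in CMP. It was lower in osteoblasts than in OMP by a log2 fold change of -3.18 (SE 0.81, edgeR adjusted p = 0.046) and lower than in CMP by -3.80 (SE 0.80, edgeR adjusted p = 0.0164). sema3aa had 17.995 and 19.7 CPM in osteoblasts, 4.92 and 3.03 CPM in OMP, and 4.20 and 12.4 CPM in CMP, with osteoblasts above the other groups. Its log2 fold change of 2.26 against OMP (SE 0.61) missed the threshold (edgeR adjusted p = 0.059), and passed it with DESeq2 (0.0217), with the bias-adjusted fit (0.044), with the CMP libraries left out (0.037) and without a filter on low counts (0.00475). The sema3ab call against OMP was lost without any osteoblast or OMP library (adjusted p up to 0.158) and with a bias-adjusted quasi-likelihood fit (adjusted p = 0.0575), and that against CMP without either osteoblast library or CMP library 2 (up to 0.138).

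The summed levels of several marker lists ran in the same direction as sema3ab and sema5bb, lowest in osteoblasts. The 9 epidermal genes summed to 2244 and 1703 CPM in osteoblasts, 5336 and 5777 CPM in OMP, and 9094 and 10079 CPM in CMP. The 7 mural genes summed to 162 and 76.5 CPM in osteoblasts, 338 and 234 CPM in OMP, and 453 and 587 CPM in CMP. The 8 fin mesenchyme genes summed to 597 and 531 CPM in osteoblasts, 1424 and 1554 CPM in OMP, and 4142 and 4593 CPM in CMP. The 6 pigment cell genes summed to 4.91 and 4.35 CPM in osteoblasts, 27.4 and 28.5 CPM in OMP, and 12.4 and 8.20 CPM in CMP. The cartilage sums given above were also lowest in osteoblasts. The mural gene cspg4 averaged 35.8 CPM in osteoblasts, 27.7 in OMP and 33.4 in CMP, with no call. The epidermal sum was carried by krt4 and krt91, and 3 of the 9 genes were called lower in osteoblasts against OMP and 2 against CMP. krt5 averaged 267 CPM in osteoblasts, 219 in OMP and 169 in CMP, and epcam 21.4 CPM in osteoblasts, 10.5 in OMP and 10.1 in CMP, with overlapping groups and no call. In osteoblasts against OMP 3 of the 7 mural and 4 of the 8 mesenchyme genes were called lower, and against CMP 5 and 6 of them. No marker of these lists was at 0 in all libraries, and the part of such cells in the sema3ab and sema5bb results was not tested. Unlike the epidermal, mural, mesenchyme and cartilage sums, sema3ab and sema5bb were not separate between OMP and CMP. Other lists ran otherwise. The muscle genes summed to 34.0 and 41.9 CPM in osteoblasts, 2.74 and 3.03 in OMP, and 1.77 and 1.17 in CMP. The osteoblast sums overlapped CMP for leukocytes, OMP for nerve and glia, and both for erythrocytes. In the RefSeq gene order, sema3d, sema3ab and sema3e lie close together, with 1 protein-coding gene between sema3d and sema3ab and none between sema3ab and sema3e. sema3d and sema3e were thus higher in osteoblasts than in CMP while sema3ab, which lies between them, was lower.

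The remaining class 3 genes were not called. sema3fa had 17.995 and 7.10 CPM in osteoblasts, 4.92 and 5.42 CPM in OMP, and 20.5 and 10.4 CPM in CMP. sema3h had 10.5 and 13.5 CPM in osteoblasts, 8.48 and 3.03 CPM in OMP, and 2.65 and 3.68 CPM in CMP, with the osteoblast libraries highest and no call (osteoblasts against CMP, edgeR adjusted p = 0.11). sema3ga and sema3gb stayed at 3.28 CPM or less in all 6 libraries. sema3c had 102 and 88.4 CPM in osteoblasts, 79.6 and 66.0 CPM in OMP, and 60.1 and 95.7 CPM in CMP, so that CMP overlapped both other groups. sema3fb had 0 reads in osteoblasts, 1 in OMP and 26 in CMP, which makes it at least 6.12-fold lower in osteoblasts than in CMP, counting 3 reads over the group as the floor. It was not called in the fit of all libraries (edgeR adjusted p = 0.0722) but was with the OMP libraries left out (0.0381). The log2 fold changes of all tested genes are shown in the plot by comparison.

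**Figure D4:**
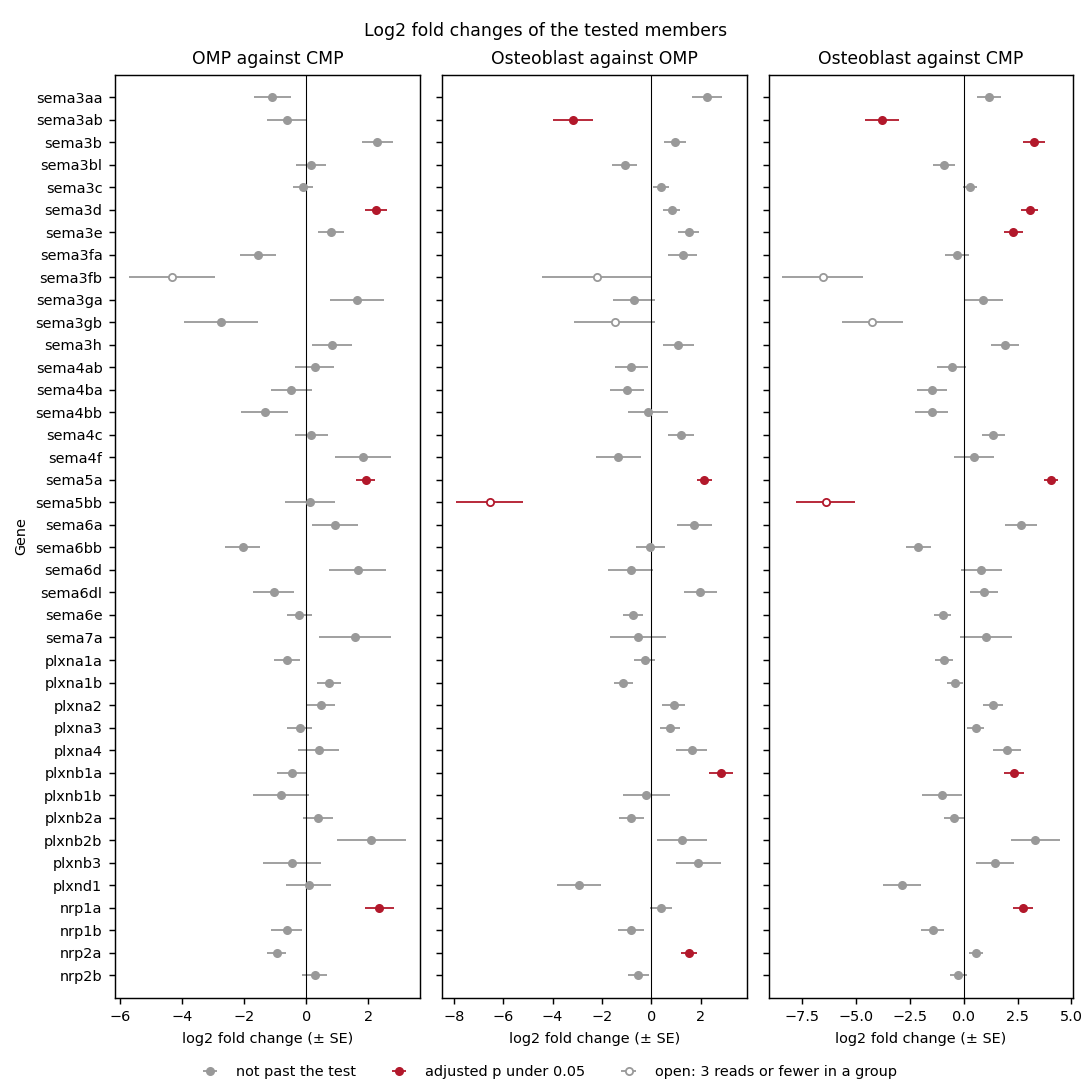
Log2 fold change of each of the 40 tested genes in OMP against CMP, osteoblasts against OMP and osteoblasts against CMP, with bars of 1 standard error. Red points passed an edgeR adjusted p under 0.05, and open points have 3 reads or fewer in a group, where the fitted value depends on the prior count. The biggest rise not resting on such low counts is that of sema5a in osteoblasts against CMP, 4.04.

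Transmembrane and anchored ligands other than class 5 gave no edgeR call among the 11 tested genes of classes 4, 6 and 7. Of these, 3 had an unadjusted p under 0.05 in osteoblasts against OMP, 4 in osteoblasts against CMP and 1 in OMP against CMP. DESeq2 called 1 of the 11 higher in each osteoblast comparison, sema6dl against OMP (adjusted p = 0.0321) and sema6a against CMP (adjusted p = 0.0303). No share of all genes stands beside these counts. sema4c, which signals through B-type plexins, was the highest class 4 gene, with 108 and 63.5 CPM in osteoblasts, 50.6 and 23.9 CPM in OMP, and 47.5 and 18.9 CPM in CMP. The osteoblast libraries were above the others, but the log2 fold change of 1.37 against CMP (SE 0.53) was not called (edgeR adjusted p = 0.177), though it was without a filter on low counts (0.0152). sema4d had 15 and 11 reads in osteoblasts and 0 in OMP and CMP, so it was at least 11.6-fold higher in osteoblasts than in OMP and at least 12.3-fold higher than in CMP, against 3 reads over the group. Its reads did not pass the filter on low counts; fitted without that filter, it was called higher against OMP (edgeR adjusted p = 0.015) and CMP (edgeR adjusted p = 0.0105), but DESeq2 did not call it (adjusted p 0.702 and 0.612). The osteoclast list summed to 522 and 437 CPM in osteoblasts, 408 and 448 CPM in OMP, and 296 and 300 CPM in CMP. It was carried by ctsk and tnfrsf11a, which ran in different directions, with acp5a, acp5b and calcr between 0 and 7 reads. ctsk averaged 197 CPM in osteoblasts, 348 in OMP and 242 in CMP, with no call. tnfrsf11a averaged 281 CPM in osteoblasts, 79.7 in OMP and 55.0 in CMP, and was called higher in osteoblasts against both. The part of osteoclasts in the sema4d reads was not tested. In class 6, sema6a was at 13.4 and 8.48 CPM in osteoblasts, 3.83 and 2.71 CPM in OMP, and 2.65 and 0.837 CPM in CMP (osteoblasts against CMP, edgeR adjusted p = 0.0525). sema6bb was at 3.60 and 2.29 CPM in osteoblasts, 3.01 and 3.03 CPM in OMP, and 14.6 and 10.7 CPM in CMP (osteoblasts against CMP, edgeR adjusted p = 0.0523). Both lay just outside the threshold and in opposite directions, and both were called with upper-quartile scaling or the bias-adjusted fit. sema6dl had 55.9 and 36.0 CPM in osteoblasts, 17.5 and 6.21 CPM in OMP, and 37.5 and 10.9 CPM in CMP, so the CMP libraries overlapped both other groups. Osteoblasts were separate from OMP, with a log2 fold change of 1.98 (SE 0.66). That change was not called (edgeR adjusted p = 0.131), though it was without a filter on low counts (0.000872). sema6e lay between 11.5 and 32.6 CPM, sema6d at 4.10 CPM or less, and sema7a, the lipid-anchored ligand, at 4.30 CPM or less. In class 4, sema4f and sema4ba reached 16.96 and 14.7 CPM in their highest libraries, sema4ab and sema4bb stayed at 6.84 CPM or less, sema4e and sema4ga had fewer than 1 CPM in each library, and sema4gb had 0 reads.

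Of the 11 plexins tested, plxnb1a was the one called, in both osteoblast comparisons. That is 9.09% of the plexins in each, beside 7.34% of all genes against OMP and 9.55% against CMP. In OMP against CMP no plexin was called by DESeq2 or by edgeR with the filter on low counts, and 0 had an unadjusted edgeR p under 0.05. Without that filter plxnb2b was called higher in OMP than in CMP (edgeR adjusted p = 0.0498). plxnb1a encodes a B-type plexin, the family that binds class 4 semaphorins. It had 37.6 and 41.9 CPM in osteoblasts, 7.93 and 3.67 CPM in OMP, and 9.27 and 6.53 CPM in CMP. OMP and CMP overlapped, and osteoblasts stood apart from both. The log2 fold change was 2.81 in osteoblasts against OMP (SE 0.48, edgeR adjusted p = 0.00756) and 2.34 in osteoblasts against CMP (SE 0.47, edgeR adjusted p = 0.0129). The call against OMP held without any single library, and the call against CMP was lost without either CMP library (adjusted p 0.0523 and 0.114). Its duplicate plxnb1b stayed between 0.821 and 2.21 CPM in all 6 libraries. Among the other B-type genes, plxnb2a lay between 14.9 and 58.3 CPM with overlapping groups. plxnb2b had 29.4 and 8.94 CPM in osteoblasts, 9.30 and 7.01 CPM in OMP, and 3.97 and 0 CPM in CMP, and plxnb3 stayed at 6.87 CPM or less. Neither was called in the fit of all libraries with the filter on low counts and group as the only term. Without the filter plxnb2b was called higher in osteoblasts than in CMP (edgeR adjusted p = 1.63e-05).

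The A-type plexins, which partner neuropilins, were all detected. plxna3, the fin receptor named above, had 105 and 55.9 CPM in osteoblasts, 59.4 and 35.4 CPM in OMP, and 60.1 and 49.5 CPM in CMP, and its groups overlapped in all 3 comparisons. plxna2 had 92.3 and 38.3 CPM in osteoblasts, 43.2 and 26.8 CPM in OMP, and 26.3 and 24.3 CPM in CMP. plxna4 had 14.1 and 14.9 CPM in osteoblasts, 6.02 and 3.51 CPM in OMP, and 5.52 and 1.67 CPM in CMP, with osteoblasts above the others. Neither plxna2 nor plxna4 was called in the fit of all libraries with the filter on low counts and group as the only term. Without the filter both were called higher in osteoblasts than in CMP (edgeR adjusted p = 0.0224 for plxna2 and 0.0292 for plxna4). plxna1a and plxna1b lay between 12.6 and 46.2 CPM. plxnc1, the receptor of Sema7A, had a single read in all 6 libraries, in CMP. LOC108183289, annotated as plexin-C1-like and outside the symbol rule, had 6 and 0 reads in osteoblasts, 4 and 3 in OMP, and 0 in CMP.

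Of the 4 neuropilins, nrp1a was called against CMP and nrp2a in osteoblasts against OMP. nrp1a had 131 and 74.9 CPM in osteoblasts, 93.0 and 64.4 CPM in OMP, and 21.0 and 9.70 CPM in CMP. Osteoblasts and OMP overlapped, and both were above CMP. It was higher in osteoblasts than in CMP by a log2 fold change of 2.75 (SE 0.47, edgeR adjusted p = 0.00578), a call kept without each library in turn, and higher in OMP than in CMP by 2.36 (SE 0.47, edgeR adjusted p = 0.0481). The OMP–CMP call was lost without any OMP or CMP library (adjusted p up to 0.316) and with DESeq2's size factors (0.0528) or summed transcripts (0.0908). As a share of the summed RPKM of the 4 neuropilin genes, nrp1a made up 36.8% and 31.8% in osteoblasts, 32.4% and 31.9% in OMP, and 8.82% and 5.24% in CMP. LOC110438108, annotated as neuropilin-1a-like, lies outside the symbol rule and is not in this sum. It had 8.83 and 8.71 CPM in osteoblasts, 36.7 and 12.6 CPM in OMP, and 34.7 and 26.3 CPM in CMP. In CMP it stood above nrp1a, so the nrp1a values do not describe all neuropilin-1a-like transcripts.

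nrp2a, the neuropilin named with Sema3d in the fin, had 87.0 and 74.0 CPM in osteoblasts, 31.2 and 25.2 CPM in OMP, and 55.6 and 52.9 CPM in CMP. OMP was the lowest group. Osteoblasts exceeded OMP in nrp2a by a log2 fold change of 1.52 (SE 0.32, edgeR adjusted p = 0.020), but that call was lost without any osteoblast or OMP library (adjusted p up to 0.156). Against CMP the log2 fold change in osteoblasts was 0.57 (SE 0.31, edgeR adjusted p = 0.38), and in OMP it was -0.95 (SE 0.31, edgeR adjusted p = 0.271). nrp2b had 64.5 and 34.6 CPM in osteoblasts, 84.0 and 58.6 CPM in OMP, and 71.5 and 47.0 CPM in CMP, with overlap in every comparison. nrp1b was low, at 4.58 and 3.67 CPM in osteoblasts, 9.03 and 5.58 CPM in OMP, and 11.5 and 10.9 CPM in CMP, and was not called.

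Of the genes that act with these receptors, 53 in the lists written for them were tested. In osteoblasts against CMP 6 were higher and 2 lower, or 15.1% beside 9.55% of all genes, and in osteoblasts against OMP 5 were higher and 3 lower, also 15.1%, beside 7.34%. In OMP against CMP 0 were higher and 2 lower by edgeR, or 3.77% beside 1.41%, with 3 higher at an unadjusted p under 0.05 and 1 higher by DESeq2. furina, encoding a protease that cleaves class 3 semaphorins, had 171 and 195 CPM in osteoblasts, 80.7 and 69.3 CPM in OMP, and 59.2 and 56.7 CPM in CMP. Its log2 fold change was 1.29 against OMP and 1.66 against CMP, and furinb had 2.66 and 2.19 in the same comparisons, all called by edgeR. farp1, a guanine nucleotide exchange factor downstream of A-type plexins, had 169 and 162 CPM in osteoblasts, 38.8 and 33.6 CPM in OMP, and 35.6 and 38.0 CPM in CMP. It rose in osteoblasts by a log2 fold change of 2.19 against OMP and 2.17 against CMP, while farp2 rose by 1.75 and the Src family kinase gene fyna by 3.53 against CMP. sdc3, a proteoglycan gene of the co-receptor list, rose by 2.33 against OMP and 1.78 against CMP.

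Some partners were lower in osteoblasts. dpysl3, of the collapsin response mediators, changed by a log2 fold change of -1.63 against OMP and -1.36 against CMP, and rnd3b by -1.73 and pak1 by -2.60 against OMP, all called by edgeR. In the connexin list, cx43 had 271 and 179 CPM in osteoblasts, 106 and 78.2 CPM in OMP, and 403 and 432 CPM in CMP, the reverse of the sema3d order for OMP and CMP. Its log2 fold change was -2.18 in OMP against CMP (edgeR adjusted p = 0.0171) and 1.29 in osteoblasts against OMP. hapln1a, a matrix linker gene also regulated by Connexin43 in the fin, was lower by -3.13 in OMP than in CMP (edgeR adjusted p = 0.00445) and by -3.55 in osteoblasts than in CMP. hapln1a also belongs to the cartilage marker list. Of the VEGF ligands and receptors, which share neuropilins, 4 were tested and none was called by edgeR or DESeq2 (1 had an unadjusted p under 0.05 in OMP against CMP and 2 in osteoblasts against CMP), and flt1 had 0 reads in all libraries.

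Within each group, the library numbered 1 tended to have the higher values for these genes. Among the 40 tested genes, 28 had more CPM in library 1 than in library 2 of osteoblasts, 33 in OMP and 25 in CMP, or 70.0%, 82.5% and 62.5%. Over all genes the shares were 50.9%, 49.0% and 50.0%. All 16 calls had the same sign within library 1 and within library 2. The libraries of the groups did not overlap in any of these calls, so that sign was fixed and adds no support. Without the OMP libraries, the 8 calls in osteoblasts against CMP were kept and sema3fb was added.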

How the data were processed

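RNA was measured by bulk sequencing of sorted zebrafish caudal fin cells in 6 libraries, 2 each for osteoblasts, OMP and CMP, grouped by sample titles. Reads were aligned with HISAT2 2.2.1 and counted with featureCounts 2.0.3 on GRCz11, per the submitters' processing notes. Since no source states whether counting used strand, overlapping antisense genes and near-identical duplicates may share reads. The deposited table holds raw read counts per transcript (75811 rows), transcript lengths, TPM values computed by the authors per the file headers, used as an alternative only, and 6 columns of RPKM that were not used. The members and gene lists were chosen with earlier results of these data known.

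Each gene was represented by its transcript with the most reads; 36 of the 46 genes had several, whose summed counts were a median of 2.0 times the kept ones. The filter on low counts was edgeR's filterByExpr, and libraries were scaled by TMM. The quasi-likelihood test (edgeR 4.0.16, limma 3.58.1, R 4.3.3) was two-sided with group as the only term, on all 6 libraries, with 3 residual degrees of freedom and Benjamini-Hochberg adjustment over 13399 genes. The standard error is the log2 fold change divided by the root of F. RPKM was computed here from TMM-scaled CPM and the deposited length. DESeq2 1.42.0, other scalings, other filters, summed transcripts, a replicate term and leaving out libraries were tried. The test was checked on simulated data. Named genes are those called, the 5 highest per group by RPKM, the neuropilins and genes with known roles in fin or bone; the other members, such as plxna2, plxnd1, sema3fb, sema6a and sema6bb, were given values after these were seen. All 46 genes matched the RefSeq table of GRCz12tu, 43 by symbol and the others by accession; its build differs from that of the counts, so it was used for names and gene order only. Read counts of the kept transcripts were between 3915569 and 5281896 per library, and the 2 libraries of a group differed beyond sampling noise (chi-square per degree of freedom 27.7 to 56.8).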

Additional observations from a re-analysis of the deposited data

How the results depend on the processing

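All 16 calls kept their direction under every alternative that gave them a value. Leaving out 1 library ended 10 of them in at least 1 case, with adjusted p over all libraries between 0.0103 and 0.0481, and 6 held throughout; the cause was not tested. In OMP against CMP, 3 members were called higher, 0 lower, and 189 genes and 2 pathway genes in all. Without a filter on low counts these became 5 higher, 585 genes and 4 pathway genes; with DESeq2, 401 genes; with summed transcripts, 0 higher, 58 genes and 1 pathway gene. Summing ended the calls of nrp1a (adjusted p = 0.0908), sema3d (0.0664) and sema5a (0.0514). In osteoblasts against OMP (3 higher, 2 lower, 983 genes, 8 pathway genes) the counts became 7 higher and 1553 genes without a filter, 6 higher with DESeq2, and 1 lower with the bias-adjusted quasi-likelihood fit, an alternative chosen after seeing the data. In osteoblasts against CMP (6 higher, 2 lower, 1280 genes, 8 pathway genes) they became 12 higher and 4 lower without a filter. The unfiltered fit raised the counts of all genes in the other comparisons too. Counts of all genes are not given beside these 12 and 4, nor beside the 6 with DESeq2, so they do not speak for the members as a set.

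Same-numbered libraries deviated together (r = 0.382 for osteoblasts and OMP, 0.296 for osteoblasts and CMP, 0.337 for OMP and CMP, across 13399 genes, which are not independent), but no label says that a number marks a shared origin. With a replicate block, OMP against CMP had 1 lower member and 622 genes, and sema5bb turned to -0.28, with nrp2a (adjusted p = 0.0368) and sema3b (0.0115) added; osteoblasts against OMP had 7 higher members, 1754 genes and 16 pathway genes, with sema3aa (0.0248), sema3e (0.00946), sema4c (0.00563), sema6dl and plxna1b added; osteoblasts against CMP had 12 higher members, 2217 genes and 16 pathway genes, with sema4c (0.00202), sema6a, sema6bb, sema6dl, plxna2, plxna4 and plxnb2b added. It ended none of the 16 calls.

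Leaving out 1 library at a time gave, in OMP against CMP, 0 to 3 members higher, 8 to 252 genes and 1 to 2 pathway genes; in osteoblasts against OMP, 2 to 4 higher, 0 to 2 lower, 573 to 876 genes and 4 to 6 pathway genes; in osteoblasts against CMP, 4 to 7 higher, 0 to 2 lower, 734 to 1339 genes and 4 to 8 pathway genes. Log2 fold changes that were not called and changed sign ranged, in OMP against CMP, from -0.04 to 0.61 for nrp2b, -0.66 to 0.12 for plxna3, -1.13 to 0.02 for plxnb1a, -1.23 to 0.54 for sema3ab, -0.39 to 0.28 for sema3c, -0.50 to 0.98 for sema4c and -1.92 to 0.98 for sema5bb. In osteoblasts against OMP they ranged from -0.04 to 0.75 for nrp1a and -0.52 to 0.37 for plxnb1b, and in osteoblasts against CMP from -0.76 to 0.13 for nrp2b and -0.00299 to 0.67 for sema3c. Of 36 summed class levels, 9 moved up by more than 1 SD with the deposited TPM, all in OMP or CMP, and none with the other scalings.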

Other observations

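Some genes annotated as related lie outside the symbol rule. plxdc2, encoding plexin domain containing 2, had 22 and 29 reads in osteoblasts, 135 and 191 in OMP, and 288 and 268 in CMP. Its log2 fold change was -2.28 in osteoblasts against OMP (SE 0.38, edgeR adjusted p = 0.00654) and -2.97 in osteoblasts against CMP (SE 0.39, edgeR adjusted p = 0.00134). LOC110438108, annotated in the table as neuropilin-1a-like, had 27 and 38 reads in osteoblasts, 134 and 79 in OMP, and 157 and 157 in CMP, the opposite order to nrp1a, and was not called in osteoblasts against CMP (-1.79 on the log2 scale, SE 0.53, edgeR adjusted p = 0.0718). LOC110437923, also annotated as neuropilin-1a-like, had 2 and 1 reads in osteoblasts, 6 and 7 in OMP, and 9 and 6 in CMP. LOC100537452, annotated as semaphorin-7A-like, had 8 and 1 reads in OMP and 0 in the other groups. These genes were chosen after their values were seen.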
